A study of Mus musculus with 21 samples.

Results

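A set of 10 genes of the nuclear factor kappa B (NF-kB) pathway were followed by RNA-seq in 6 libraries of mouse B cell precursors. They were chosen by name, with earlier results of these data known. They are the 5 subunit genes Nfkb1, Nfkb2, Rel, Rela and Relb, the inhibitor genes Nfkbia and Nfkbie, and the feedback targets Tnfaip3, Bcl3 and Birc3. All 10 were present among the 24421 gene symbols of the deposited tables, and all 10 passed the filter on low counts that left 12786 genes for testing. The cells were bone marrow cultures from 53BP1-/- C57BL/6 mice, grown with IL-7 at 10 ng per ml and spinoculated with MIGR1 retrovirus on days 2 and 3 of culture. One condition received the empty vector (EV), another human BCR-ABL1, the fusion kinase of Philadelphia chromosome-positive leukemia, and the remaining condition mouse C-MYC, the transcription factor. Cells were harvested 7 to 9 days after transduction, with 2 libraries per condition. Both oncogenes were driven by the same retroviral vector, all 3 RNA-seq conditions lacked 53BP1, and no wild-type culture was among the RNA-seq libraries. The cultures were started from total bone marrow and enriched for B cell precursors by IL-7, so other bone marrow cells could persist in them.

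NF-kB transcription factors are dimers of 5 related subunits. RelA, c-Rel and RelB carry transactivation domains, whereas the products of Nfkb1 and Nfkb2 are precursors that are processed to the DNA-binding partners p50 and p52. In resting cells the dimers are held in the cytoplasm by IkB proteins until the IkB kinase (IKK) marks these for degradation, and the non-canonical branch instead processes the Nfkb2 precursor to release RelB. Several products of NF-kB target genes, among them IkBalpha and the ubiquitin-editing enzyme A20, act back on the pathway and limit it. B cell precursors are known to use this pathway downstream of their antigen receptor precursor and of TNF family receptors.

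The members lie on 8 chromosomes of GRCm38 (GENCODE vM21). Nfkb1 lies at chr3:135584655-135691547, Nfkb2 at chr19:46304320-46312385, Rel at chr11:23736847-23770970, Rela at chr19:5637483-5648130 and Relb at chr7:19606217-19629438. Nfkbia lies at chr12:55489410-55492647, Nfkbie at chr17:45555703-45563169, Tnfaip3 at chr10:19000910-19015657, Bcl3 at chr7:19808462-19822770 and Birc3 at chr9:7848699-7873186. Nfkb2, Rela and Nfkbie are on the plus strand and the other 7 genes on the minus strand. Of the exon bases of Nfkb2, 18.1% are shared with genes on the opposite strand (Psd and AC114539.1), and of those of Bcl3, 6.51% (Gm16175). The handling of strand in the counting is not given in the sources used here, so reads of such partners cannot be told apart from those of Nfkb2 and Bcl3.

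Many genes that feed back on NF-kB are known to carry kappaB sites, the DNA element bound by the dimers, close to their start sites. RefSeq promoter windows of 300 bases (250 before to 50 after the start site, GRCm38) were matched for 8 of the 10 members by symbol, those other than Nfkb1 and Relb. The 10-base kappaB consensus was searched on both strands. It matched in the most upstream window of 6 of these 8 members, and in 8.19% of the most upstream windows of all 27025 genes that have one. Rela and Birc3 had no match in this window. The stretches that hold the matches are shown because they place the consensus letters in these members. With C-MYC against EV, the matched members Nfkb2, Nfkbia, Nfkbie, Tnfaip3 and Bcl3 were called lower and Rel was not. Of the members without a match, Birc3 was called lower and Rela was not. Whether matches and changes go together was not tested. The stretches are written 5′ to 3′ on the strand of the gene, with the bases covered by matches in capitals. Those that touch an annotated exon were kept to 30 bases.
Nfkb2, chr19:46304688-46304717: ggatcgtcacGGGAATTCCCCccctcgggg
Nfkb2, chr19:46304716-46304745: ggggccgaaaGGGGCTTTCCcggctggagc
Rel, chr11:23771021-23771091: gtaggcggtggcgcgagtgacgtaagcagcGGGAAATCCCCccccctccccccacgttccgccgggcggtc
Nfkbia, chr12:55492648-55492706: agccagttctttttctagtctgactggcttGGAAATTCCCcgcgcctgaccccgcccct
Nfkbie, chr17:45555564-45555633: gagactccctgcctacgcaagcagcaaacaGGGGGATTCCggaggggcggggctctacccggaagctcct
Tnfaip3, chr10:19015516-19015545: gactcacgcgGGGACACCCCggggcgggac
Tnfaip3, chr10:19015411-19015452: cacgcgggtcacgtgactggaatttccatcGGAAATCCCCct
Bcl3, chr7:19822734-19822763: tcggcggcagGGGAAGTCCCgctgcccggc

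Counted in bases from the start site, the matches of Nfkb2 ran from -39 to -29 and from -11 to -2, that of Rel from -92 to -82, that of Nfkbia from -29 to -20 and that of Nfkbie from -106 to -97. Those of Tnfaip3 ran from -125 to -116 and from -12 to -3, and that of Bcl3 from 3 to 12. In Nfkb2, Rel, Tnfaip3 and Bcl3 a match was read on both strands at the same place. A match is a description of letters, and binding was not measured.

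**Figure D1:**
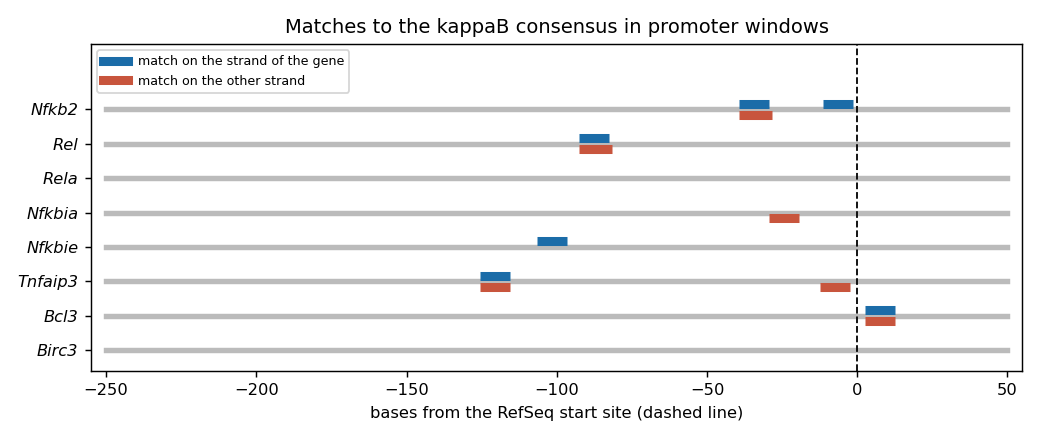
Positions of matches to the kappaB consensus in the most upstream RefSeq promoter window of 8 members, in bases from the start site (horizontal axis, dashed line at the start site). Grey bars are the windows, blue and red blocks are matches on the strand of the gene and on the other strand; 6 members have a match and Rela and Birc3 have none.

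The libraries held between 20687092 and 24095955 counts. B cell precursor markers, such as Cd79a and Pax5, were present in every library, with a summed level of 5144 to 5983 CPM (counts scaled by TMM-normalized library size) in EV cells, 5343 to 5972 in BCR-ABL1 cells and 2813 to 3478 in C-MYC cells. Of these 9 markers, 2 were called lower with BCR-ABL1 than with EV (Cd79b and Rag1) and 8 were called lower with C-MYC. Markers of other cells were also present and differed between conditions. The 10 myeloid markers summed to 1274 to 1647 CPM in EV cells, 156 to 172 in BCR-ABL1 cells and 210 to 361 in C-MYC cells, and all 10 were lower in each oncogene condition than in EV. The 7 T and NK cell markers summed to 76.6 to 115 CPM in EV cells, 4.22 to 5.73 in BCR-ABL1 cells and 3.03 to 3.50 in C-MYC cells, and all 7 were lower in each oncogene condition. The 5 stromal markers summed to 103 to 157 CPM in EV cells, 4.98 to 6.02 in BCR-ABL1 cells and 1.75 to 2.56 in C-MYC cells, where Cxcl12 and Pdgfrb were at 0. Of these, 4 were lower with BCR-ABL1 (those other than Cxcl12) and 5 with C-MYC. The 6 dendritic cell markers summed to 20.0 to 24.03 CPM in EV cells, 6.23 to 11.4 in BCR-ABL1 cells and 2.48 to 2.78 in C-MYC cells, where 1 marker was at 0 in each library (Zbtb46 or Siglech), and 2 of the 4 tested, Itgax and Ccr9, were lower with each oncogene. Flt3 of the same list had 68 and 42 counts in EV cells, 202 and 114 in BCR-ABL1 cells and 32 and 19 in C-MYC cells, and its log2 fold change of 1.54 with BCR-ABL1 against EV did not pass the test (SE 0.45, adjusted p = 0.0549), although DESeq2 called it higher. Erythroid markers reached at most 1.54 CPM in any library, with Hba-a1 and Hbb-b1 at 0. Myeloid and T cells also use NF-kB. The myeloid, T and NK cell, stromal and dendritic cell marker sums were lower in both oncogene conditions than in EV. The B cell precursor sums were lower than in EV only with C-MYC. The part of the markers in the results was not tested. In bulk RNA, fewer cells of a type and less RNA per cell cannot be told apart.

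**Figure D2:**
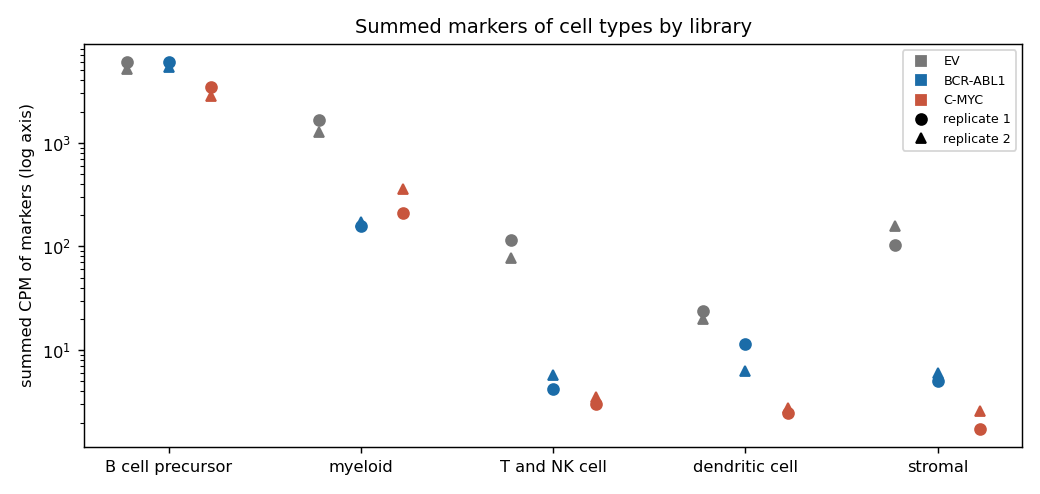
Summed CPM of marker genes of 5 cell types in each of the 6 libraries (log axis; circles replicate 1, triangles replicate 2). Myeloid, T and NK cell and stromal sums are highest in both EV libraries, while B cell precursor sums of EV and BCR-ABL1 overlap and those of C-MYC lie below them.

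Levels of different genes were compared per length, as FPKM (fragments scaled by transcript length and depth). Nfkb1 was the most abundant member by FPKM in every condition, at 117 ± 6.21 in EV cells, 108 ± 1.69 in BCR-ABL1 cells and 82.9 ± 1.298 in C-MYC cells (SD, n = 2). Bcl3, at 4.71 ± 3.20, 1.46 ± 0.476 and 1.11 ± 0.0820 FPKM, was the least abundant in every condition. The median FPKM of the genes tested was 9.47 in EV cells, 8.65 in BCR-ABL1 cells and 8.05 in C-MYC cells. In EV, Nfkbia followed Nfkb1 at 39.8 FPKM, then Rela (30.3), Nfkb2 (27.8), Birc3 (27.7), Rel (24.6), Relb (16.1), Nfkbie (15.7) and Tnfaip3 (15.1), and from Rela to Tnfaip3 the libraries of every neighboring pair overlapped. In BCR-ABL1, Rel ranked 2nd at 32.0 FPKM, above both libraries of Rela (24.9), followed by Nfkbia (24.1), Birc3 (17.0), Nfkb2 (13.3), Nfkbie (8.73), Tnfaip3 (8.41) and Relb (8.28). The libraries of Rela and Nfkbia overlapped there, as did those of Nfkbie, Tnfaip3 and Relb. In C-MYC the order after Nfkb1 was Rela (20.9), Rel (16.8), Nfkbia (15.4), Birc3 (9.09), Nfkb2 (8.94), Tnfaip3 (5.64), Nfkbie (4.67) and Relb (4.53), with overlap between Birc3 and Nfkb2 and between Nfkbie and Relb. The order depended on the length used. By counts per kilobase of annotated exon, Nfkb1 ranked 5th in EV and 3rd in both oncogene conditions, and its FPKM was 4.66-fold above what its counts per kilobase gave relative to the median gene. Rel in BCR-ABL1 ranked 6th by counts per kilobase, at 10.0 against 27.5 for Rela. Bcl3 ranked last on both scales.

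Among the subunits, the non-canonical genes Nfkb2 and Relb had the largest estimated decreases against EV, while Rel was the only subunit with its highest mean in BCR-ABL1. Nfkb1, which encodes p105 and p50, had 4182 and 4217 counts in EV cells, 3801 and 4381 in BCR-ABL1 cells and 3148 and 3151 in C-MYC cells. The EV and BCR-ABL1 libraries overlapped at 186 ± 13.6 and 181 ± 1.31 CPM, and both C-MYC libraries were lower at 143 ± 2.27 CPM (SD, n = 2). The log2 fold change was -0.04 with BCR-ABL1 against EV (SE 0.10, adjusted p = 0.846) and -0.38 with C-MYC (SE 0.10, adjusted p = 0.0194). Nfkb2, which encodes p100 and p52, had 1585 and 1170 counts in EV cells, 689 and 708 in BCR-ABL1 cells and 489 and 466 in C-MYC cells. No libraries of different conditions overlapped, and the means were 61.5 ± 17.8, 31.0 ± 2.29 and 21.7 ± 1.10 CPM. Nfkb2 fell 1.98-fold with BCR-ABL1 (log2 fold change -0.99, SE 0.20, adjusted p = 0.0145) and 2.83-fold with C-MYC (-1.502, SE 0.20, adjusted p = 0.00119). Without EV replicate 1 the change with BCR-ABL1 was -0.65 (adjusted p = 0.0143).

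Relb, the partner of p52, had 804 and 434 counts in EV cells, 377 and 311 in BCR-ABL1 cells and 225 and 154 in C-MYC cells. EV replicate 1 was well above EV replicate 2, which at 18.1 CPM was close to BCR-ABL1 replicate 1 at 17.9 CPM. Relb fell 3.23-fold with C-MYC (log2 fold change -1.69, SE 0.37, adjusted p = 0.00815), and its change with BCR-ABL1 did not pass the test (-0.86, SE 0.36, adjusted p = 0.147). With the replicate number as a block the BCR-ABL1 change of Relb was -0.79 and passed (adjusted p = 0.0133). The size of its change differed with the EV library used: without EV replicate 1 the changes were -0.23 with BCR-ABL1 (adjusted p = 0.572) and -1.07 with C-MYC (adjusted p = 0.0147), and without EV replicate 2 the change with BCR-ABL1 was -1.29 (adjusted p = 0.00882). Rel, which encodes c-Rel, had 1419 and 1063 counts in EV cells, 1815 and 1558 in BCR-ABL1 cells and 930 and 884 in C-MYC cells. BCR-ABL1 had the highest mean at 75.4 ± 15.1 CPM, but its range overlapped that of EV at 55.4 ± 15.5 CPM, and C-MYC was lowest at 41.2 ± 2.16 CPM. Neither oncogene moved Rel past the threshold against EV, with log2 fold changes of 0.45 in BCR-ABL1 cells (95% interval -0.05 to 0.94, adjusted p = 0.201) and -0.43 in C-MYC cells (-0.92 to 0.07, adjusted p = 0.145). With the replicate block both passed, at 0.45 (adjusted p = 0.0385) and -0.40 (adjusted p = 0.0362). Without EV replicate 1 the Rel change with BCR-ABL1 was 0.77 and also passed (adjusted p = 0.0206), and without EV replicate 2 the change with C-MYC was -0.68 (adjusted p = 0.0118).

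Rela, the main transactivating subunit of the canonical branch, had 2360 and 2057 counts in EV cells, 1890 and 1931 in BCR-ABL1 cells and 1842 and 1392 in C-MYC cells. The BCR-ABL1 libraries overlapped those of EV and of C-MYC in CPM. None of its changes passed the test: -0.21 with BCR-ABL1 (95% interval -0.63 to 0.21, adjusted p = 0.483), -0.42 with C-MYC (-0.84 to 0.01, adjusted p = 0.1003) and 0.21 between the oncogenes (-0.21 to 0.63, adjusted p = 0.453). The change with C-MYC passed with the replicate block (-0.42, adjusted p = 0.0129) and with scaling by library size only (-0.54, adjusted p = 0.0353), and without EV replicate 2 it was -0.58 (adjusted p = 0.0254).

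**Figure D3:**
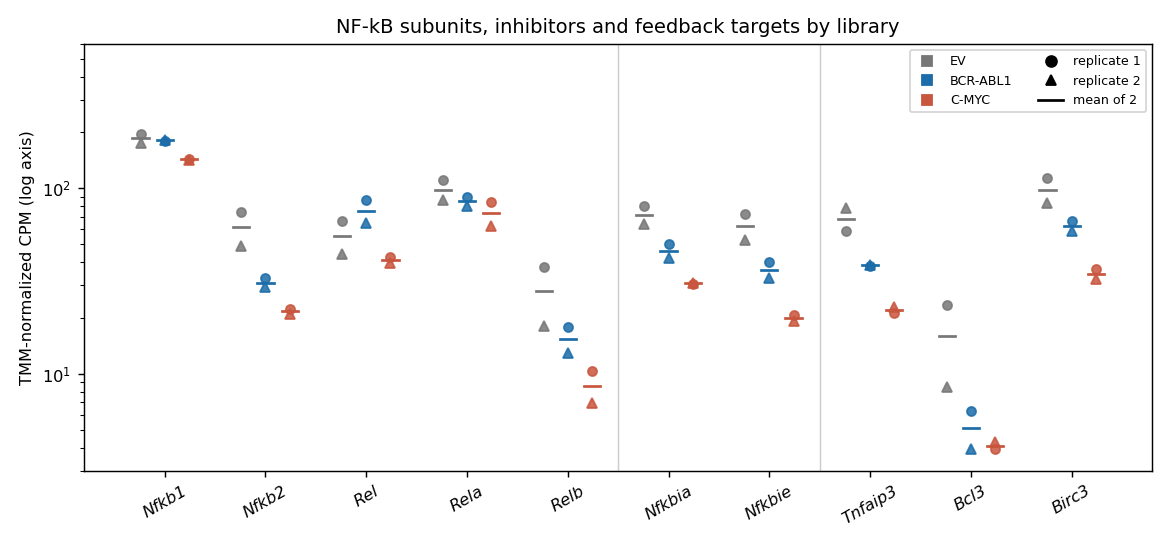
TMM-normalized CPM of the 10 members in each library (log axis), in grey for EV, blue for BCR-ABL1 and red for C-MYC, with the mean of 2 libraries as a line. With C-MYC against EV, 8 members were called lower, beside 24.5% of all genes tested, and Rel and Rela were not called. Rel is the member with its highest mean in BCR-ABL1.

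Both inhibitor genes were lowest in C-MYC and intermediate in BCR-ABL1. Nfkbia encodes IkBalpha, the inhibitor that is resynthesized after each round of NF-kB activation. It had 1718 and 1531 counts in EV cells, 1058 and 1012 in BCR-ABL1 cells and 666 and 687 in C-MYC cells, with means of 72.2 ± 11.5, 46.1 ± 5.73 and 30.7 ± 0.167 CPM. No libraries of different conditions overlapped. Nfkbia fell 1.57-fold with BCR-ABL1 (log2 fold change -0.65, SE 0.15, adjusted p = 0.0270) and 2.35-fold with C-MYC (-1.23, SE 0.16, adjusted p = 0.000929). Nfkbie encodes IkBepsilon, an inhibitor of RelA and c-Rel dimers. It had 1554 and 1265 counts in EV cells, 842 and 787 in BCR-ABL1 cells and 451 and 429 in C-MYC cells, again without overlap, and means of 62.8 ± 14.0, 36.3 ± 5.10 and 20.0 ± 1.04 CPM. Nfkbie fell 1.73-fold with BCR-ABL1 (-0.79, SE 0.18, adjusted p = 0.0239) and 3.14-fold with C-MYC (-1.65, SE 0.19, adjusted p = 0.000628).

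All 3 feedback targets were lower with each oncogene than with EV. Tnfaip3, which encodes A20, had 1262 and 1871 counts in EV cells, 806 and 928 in BCR-ABL1 cells and 462 and 507 in C-MYC cells, without overlap between conditions. It fell 1.79-fold with BCR-ABL1 (log2 fold change -0.84, SE 0.16, adjusted p = 0.0112) and 3.12-fold with C-MYC (-1.64, SE 0.16, adjusted p = 0.000432). Its counts and FPKM differed in how they ordered replicates: EV replicate 1 had 16.2 FPKM and EV replicate 2, with more counts, 13.9 FPKM. Counts divided by FPKM and library size gave a length of 3.72 to 3.76 kilobases in 4 libraries, but 5.94 for EV replicate 2 and 5.80 for BCR-ABL1 replicate 2. On the FPKM scale (limma on log2(FPKM + 1)), the Tnfaip3 change with BCR-ABL1 was -0.79 and did not pass (adjusted p = 0.0572), and that with C-MYC was -1.27 (adjusted p = 0.00501).

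Birc3, which encodes the ubiquitin ligase cIAP2, had 2427 and 1986 counts in EV cells, 1410 in each BCR-ABL1 library, and 795 and 726 in C-MYC cells. The means were 98.2 ± 21.5, 62.7 ± 5.84 and 34.6 ± 2.79 CPM, without overlap. Birc3 fell 1.57-fold with BCR-ABL1 (log2 fold change -0.65, SE 0.17, adjusted p = 0.0380) and 2.84-fold with C-MYC (-1.51, SE 0.17, adjusted p = 0.000653). Bcl3 encodes an atypical IkB protein that binds p50 and p52 in the nucleus. It had 501 and 204 counts in EV cells, 133 and 95 in BCR-ABL1 cells and 85 and 95 in C-MYC cells. EV replicate 1, at 23.4 CPM, stood far above EV replicate 2, at 8.53 CPM, and the oncogene libraries ranged from 3.91 to 6.30 CPM. Bcl3 fell 3.12-fold with BCR-ABL1 (-1.64, SE 0.46, adjusted p = 0.0465) and 3.90-fold with C-MYC (-1.96, SE 0.47, adjusted p = 0.0117). The myeloid markers did not move together between the EV libraries, and their part in Bcl3 was not tested. Their sum was higher in replicate 1, at 1647 against 1274 CPM. S100a8, with 4324 and 1223 counts, S100a9, with 6726 and 2606, Ngp, with 7782 and 2549, and Cd14, with 759 and 316, were higher in replicate 1. So were the counts of Elane, Itgam and Mpo. Lyz2, with 10615 and 16518 counts, Csf1r, with 1765 and 3461, and Adgre1, with 579 and 1432, were higher in replicate 2. Without EV replicate 1 the Bcl3 changes were -0.73 with BCR-ABL1 (adjusted p = 0.117) and -1.06 with C-MYC (adjusted p = 0.0231). That library also decided the call of Birc3 with BCR-ABL1, which was -0.40 without it (adjusted p = 0.0720).

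BCR-ABL1 was compared with EV to ask how the cells differ early after transformation by the kinase. Of the 10 members, 6 were lower and 0 were higher with BCR-ABL1: Nfkb2, both inhibitors and all 3 feedback targets. Over all genes tested, 12.0% were called lower and 5.08% higher. The median log2 fold change of the members was -0.72, and that of all genes tested 0.00. By edgeR at an unadjusted p below 0.05, 7 members were lower and 0 higher. DESeq2 called 6 lower and 0 higher at its adjusted p, beside 1533 of all genes tested lower and 945 higher. The share of all genes at an unadjusted p was not computed, so counts at that threshold stand without a background here and below. The calls rested on both BCR-ABL1 libraries: without replicate 1 or without replicate 2, 0 members were called in edgeR (at an unadjusted p below 0.05, 7 lower without replicate 1, and 6 lower and 1 higher without replicate 2), while calls over all genes dropped from 2180 to 714 and 665. A fit of only the 4 libraries compared called 2 members (Nfkb2 and Tnfaip3), as did fits without either C-MYC library, and limma on log2(FPKM + 1) called 3 (Nfkb2, Nfkbia and Nfkbie). Over all genes, the fit of the 4 libraries compared called 1332 lower and 402 higher, and limma on log2(FPKM + 1) 1021 lower and 286 higher. Of all calls in this comparison, 29.8% were higher, against 19.4% when libraries were scaled by size only. The replicate block called 8 members, of which Rel was higher, beside 2003 of all genes tested called lower and 1221 higher.

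C-MYC was compared with EV with the same question for the transcription factor, against the same 2 EV libraries. Here 8 of the 10 members were lower and 0 higher, the exceptions being Rel and Rela. Over all genes tested, 24.5% were called lower and 18.6% higher. The median log2 fold change was -1.504 for the members and -0.08 for all genes tested. At an unadjusted p below 0.05, edgeR had 8 members lower and 0 higher. DESeq2 called 8 lower and 0 higher at its adjusted p, beside 2875 of all genes tested lower and 2639 higher. Without C-MYC replicate 2, 5 members were called (Nfkb2, Nfkbia, Nfkbie, Tnfaip3 and Birc3), and these 5 were called lower under every alternative tried for C-MYC against EV. Without C-MYC replicate 2 the calls of Relb (-1.42, adjusted p = 0.0668), Bcl3 (-2.02, adjusted p = 0.0659) and Nfkb1 (-0.36, adjusted p = 0.0984) were lost, and without C-MYC replicate 1 those of Bcl3 (-1.89, adjusted p = 0.0804) and Nfkb1 (-0.39, adjusted p = 0.0838). Nfkb1 also missed the threshold without EV replicate 1 (-0.30, adjusted p = 0.0523), without BCR-ABL1 replicate 1 or 2 (-0.37 in each, adjusted p = 0.0600 and 0.0628) and with only the 4 libraries compared (-0.32, adjusted p = 0.0868). The replicate block called all 10 lower, beside 3713 of all 12786 genes tested. Scaling by library size only moved the median of all genes by -0.12 in this comparison. It lowered the share of calls that were higher from 43.2% to 32.2%. It called 9 members lower, beside 3782 of all 12786 genes tested.

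BCR-ABL1 was also compared directly with C-MYC, which tests whether the oncogenes differ. Of the 10 members, 6 were higher and 0 lower with BCR-ABL1, beside 11.9% of all genes tested called higher and 11.5% lower. Rel was 1.83-fold higher with BCR-ABL1 (log2 fold change 0.87, SE 0.21, adjusted p = 0.0242), and its difference ranged from 0.65 to 1.05 when 1 library was left out. Nfkbie was 1.81-fold higher (0.86, SE 0.19, adjusted p = 0.0156), Birc3 1.81-fold (0.86, SE 0.17, adjusted p = 0.0118), Tnfaip3 1.74-fold (0.80, SE 0.16, adjusted p = 0.0116) and Nfkbia 1.5-fold (0.58, SE 0.16, adjusted p = 0.0323). Nfkb1 was 1.27-fold higher at the edge of the threshold (0.34, SE 0.10, adjusted p = 0.0469). It missed the threshold with DESeq2 size factors (0.32, adjusted p = 0.0610) and without a filter on low counts (0.33, adjusted p = 0.0677). Tnfaip3 was not called by limma on log2(FPKM + 1) or log2(FPKM + 0.1). Its lowest difference was 0.48 over the alternatives other than leaving out 1 library. Nfkb2 (0.52, 95% interval 0.05 to 0.99, adjusted p = 0.105) and Relb (0.83, -0.02 to 1.68, adjusted p = 0.141) did not pass, but passed with the replicate block, at 0.51 (adjusted p = 0.0315) and 0.85 (adjusted p = 0.00942). Bcl3 (0.32, -0.77 to 1.42, adjusted p = 0.662) and Rela overlapped between the oncogenes. The median over the members was 0.69 and over all genes 0.00.

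Cell markers also moved between the oncogenes. With BCR-ABL1 against C-MYC, 7 of 9 B cell precursor markers were higher, 3 of 10 myeloid markers were lower (Adgre1, Cd14 and Csf1r), 2 of 5 stromal markers (Col1a1 and Col1a2) and 1 of 4 dendritic cell markers (Flt3) were higher, and 0 of 7 T and NK cell markers were called by edgeR (1 higher at an unadjusted p below 0.05) or by DESeq2. The part of these markers in the member differences was not tested. At an unadjusted p below 0.05, 7 members were higher and 0 lower in edgeR. DESeq2 called 6 higher and 0 lower, beside 1575 of all genes tested higher and 1795 lower. Without BCR-ABL1 replicate 1, C-MYC replicate 1 or C-MYC replicate 2, edgeR called 0 members, with 4, 7 and 5 higher at an unadjusted p below 0.05. Without BCR-ABL1 replicate 2 it called 3 (Rel, Nfkbie and Birc3), and calls over all genes dropped from 2991 to between 618 and 1291 in these 4 fits. Without either EV library more members were higher, and more of all genes were called as well.

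**Figure D4:**
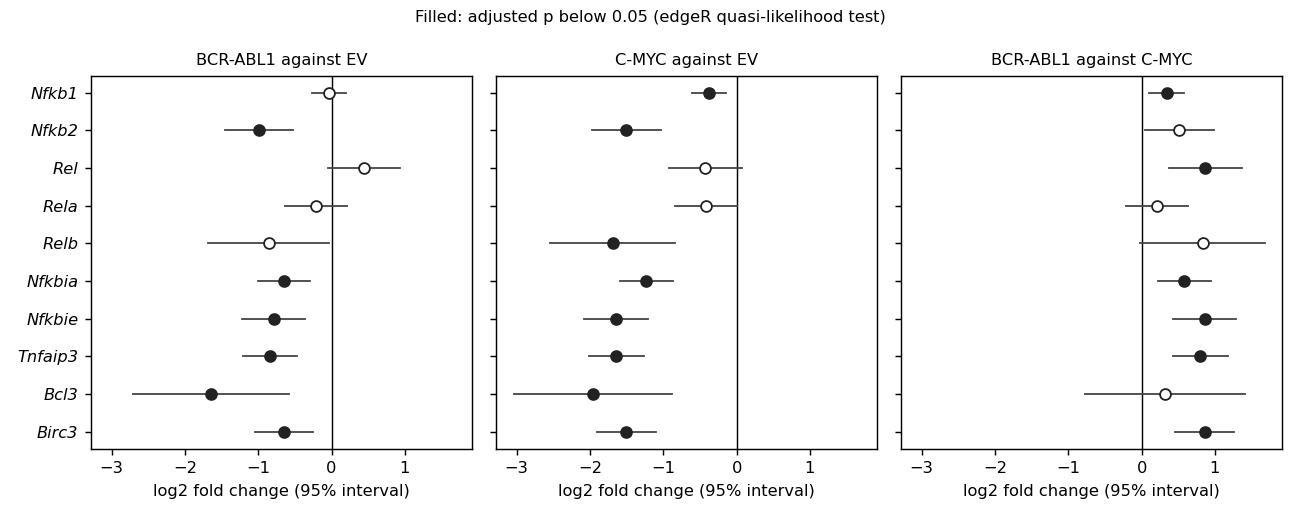
Log2 fold change of each member with its 95% interval in the 3 comparisons; filled points have an adjusted p below 0.05. Filled points lie left of 0 in both comparisons with EV (6 and 8 members) and right of 0 in BCR-ABL1 cells against C-MYC (6 members).

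Ratios within a library do not depend on its scaling and are given as a description, without a test. The summed FPKM of the inhibitors Nfkbia and Nfkbie, divided by that of the canonical subunits Rela, Rel and Nfkb1, was 0.336 and 0.307 in EV cells, 0.210 and 0.186 in BCR-ABL1 cells and 0.159 and 0.173 in C-MYC cells. Inhibitor transcripts were thus fewest per canonical subunit transcript in C-MYC and most in EV, with no overlap. By counts per kilobase of exon this ratio was 1.21 and 1.18 in EV cells, 0.796 and 0.739 in BCR-ABL1 cells and 0.570 and 0.682 in C-MYC cells, in the same order. The non-canonical subunits Nfkb2 and Relb, relative to Nfkb1, Rela and Rel, summed to 0.298 and 0.206 in EV cells, 0.138 and 0.123 in BCR-ABL1 cells and 0.118 and 0.105 in C-MYC cells. Both EV libraries were above the oncogene libraries, and EV replicate 1 was the highest. The ratio of Rel to Rela was 0.871 and 0.735 in EV cells, 1.39 and 1.16 in BCR-ABL1 cells and 0.725 and 0.908 in C-MYC cells. Rel exceeded Rela by FPKM in both BCR-ABL1 libraries and in no other library. By counts per kilobase the ratio was lower throughout, at 0.395 and 0.332 in BCR-ABL1 cells and between 0.208 and 0.261 elsewhere, and BCR-ABL1 was again highest.

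**Figure D5:**
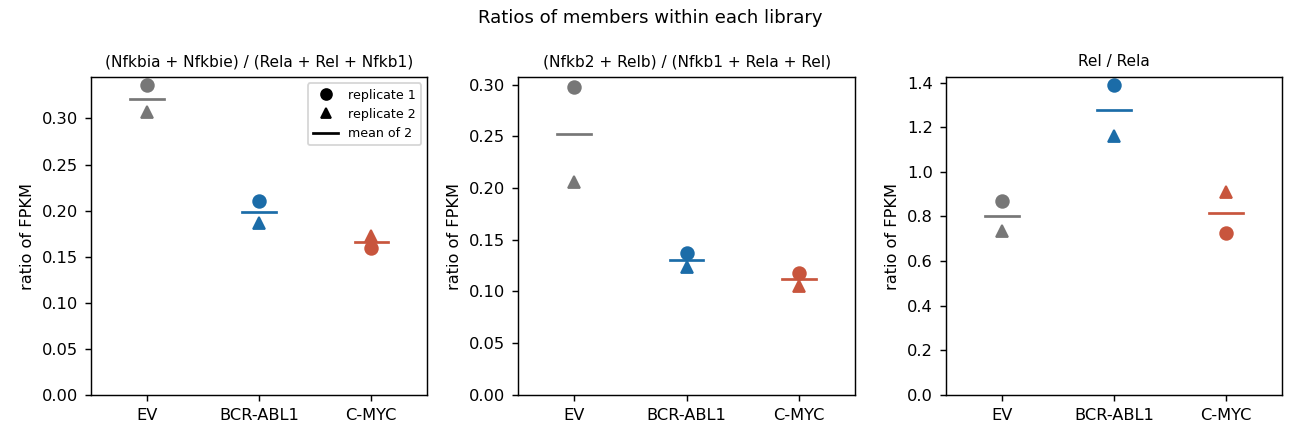
Ratios of summed FPKM within each library: inhibitors over canonical subunits, non-canonical over canonical subunits, and Rel over Rela (vertical axes start at 0; lines are means of 2). The first ratio is 0.307 to 0.336 in EV cells and 0.159 to 0.210 in the oncogene libraries, and Rel over Rela exceeds 1 in both BCR-ABL1 libraries.

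The other genes of the pathway were grouped by role, and 72 of 73 passed the filter on low counts. Against EV, BCR-ABL1 had 3 higher and 24 lower, and C-MYC 2 higher and 42 lower; between the oncogenes, 12 were higher and 6 lower with BCR-ABL1. The counts of each group below stand beside the shares of all genes given above: 5.08% higher and 12.0% lower with BCR-ABL1, 18.6% higher and 24.5% lower with C-MYC, and 11.9% higher and 11.5% lower between the oncogenes. Of 10 genes of the IKK complex and its activating kinases, edgeR called 0 with BCR-ABL1 against EV (1, Ikbke, lower at an unadjusted p below 0.05 and by DESeq2) and 0 between the oncogenes (3, Ikbkg, Tab2 and Tbk1, higher at an unadjusted p below 0.05, and 1, Ikbkg, by DESeq2). With C-MYC 3 were lower: Ikbke, an IKK-related kinase, at -1.33 (SE 0.32, adjusted p = 0.0129), Map3k14, the kinase NIK of the non-canonical branch, at -1.05 (SE 0.31, adjusted p = 0.0283), and Ikbkg, the regulatory IKK subunit NEMO, at -0.52 (SE 0.13, adjusted p = 0.0151).

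Of 3 further IkB genes, Nfkbiz, which encodes the nuclear protein IkBzeta, had 578 and 679 counts in EV cells, 561 and 572 in BCR-ABL1 cells and 178 and 188 in C-MYC cells. It was lower with C-MYC (log2 fold change -1.74, SE 0.15, adjusted p = 0.000325) and higher with BCR-ABL1 than with C-MYC (1.60, SE 0.15, adjusted p = 0.000955). Nfkbid, encoding IkBNS, went the other way, with 333 and 344 counts in BCR-ABL1 cells and 598 and 464 in C-MYC cells (-0.68, SE 0.18, adjusted p = 0.0304). Of these 3 genes, 0 passed with BCR-ABL1 against EV in edgeR (1, Nfkbid, lower at an unadjusted p below 0.05 and by DESeq2).

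Of 17 adaptors and ubiquitin ligases, 1 was lower with BCR-ABL1 against EV, namely Rnf31, the catalytic subunit HOIP of the linear ubiquitin ligase (-0.54, SE 0.14, adjusted p = 0.0395). With C-MYC 7 were lower and 1 higher, and between the oncogenes 4 were higher with BCR-ABL1 (Prkcb, Traf5, Birc2 and Traf6) and 1 lower. Prkcb, the protein kinase that acts between the B cell receptor and IKK, had 11994 and 14644 counts in EV cells, 10637 and 11046 in BCR-ABL1 cells and 5719 and 5049 in C-MYC cells. It was lower with C-MYC than with EV (-1.26, SE 0.11, adjusted p = 0.000350) and higher with BCR-ABL1 than with C-MYC (0.98, SE 0.11, adjusted p = 0.00184). Traf5 and Birc2, which encodes cIAP1, were lower with C-MYC (-0.97 and -0.96) and higher with BCR-ABL1 than with C-MYC (0.60 and 0.59). The gene that went the other way was Traf3, whose product restrains NIK and the non-canonical branch. It had 1393 and 1697 counts in EV cells, 1507 and 1655 in BCR-ABL1 cells and 2289 and 2120 in C-MYC cells, and was higher with C-MYC than with EV (0.56, SE 0.12, adjusted p = 0.00675) and than with BCR-ABL1.

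Of 9 deubiquitinases and partners of A20, 1 was lower with BCR-ABL1 (Tnip3, at -3.40 with 5 to 106 counts per library) and 6 with C-MYC, 3 of them by DESeq2. Among the 6 were the deubiquitinase gene Cyld (-0.66, SE 0.12, adjusted p = 0.00364) and the A20 partner genes Tnip1 (-0.50, SE 0.13, adjusted p = 0.0170) and Tax1bp1 (-0.39, SE 0.13, adjusted p = 0.0459). Between the oncogenes edgeR called 0 of the 9 (2 higher and 1 lower at an unadjusted p below 0.05), and DESeq2 called 0.

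Of 10 receptors upstream of NF-kB, 7 were lower with BCR-ABL1 and 6 with C-MYC. Several are receptors that myeloid cells also use. The myeloid marker sums given above were lower with each oncogene too, and their part in these changes was not tested. Ltbr and Il1r1 were not called with C-MYC against EV, at -0.10 (adjusted p = 0.791) and 0.56 (adjusted p = 0.214). Tnfrsf1a, a TNF receptor, had 373 and 347 counts in EV cells, 37 and 49 in BCR-ABL1 cells and 89 and 189 in C-MYC cells (log2 fold changes -3.07 and -1.34 against EV). Ltbr, the lymphotoxin beta receptor, was at -2.24 and Tlr2 at -1.68 with BCR-ABL1 against EV, both called. Tlr9, a DNA sensor that B cells express, had 1375 and 1259 counts in EV cells, 650 and 619 in BCR-ABL1 cells and 279 and 207 in C-MYC cells, and was called lower with BCR-ABL1 (-1.05, SE 0.19, adjusted p = 0.0101) and with C-MYC (-2.40, SE 0.20, adjusted p = 0.000306). Tnfrsf13c, the receptor for the survival factor BAFF, was also lower with C-MYC (-1.35, SE 0.22, adjusted p = 0.00229). Between the oncogenes, 3 were lower with BCR-ABL1, namely Ltbr (-2.14), Tnfrsf1a (-1.73) and the interleukin receptor gene Il1r1 (-2.43), and 1 was higher, Tlr9 (1.35).

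Of 24 other NF-kB target genes, 23 were tested. With BCR-ABL1 15 were lower and 3 higher against EV, and with C-MYC 19 were lower and 1 higher. The latter was Sod2, the mitochondrial superoxide dismutase gene, with 1257 and 1498 counts in EV cells, 1544 and 1843 in BCR-ABL1 cells and 3084 and 2954 in C-MYC cells (1.18 with C-MYC against EV, SE 0.11, adjusted p = 0.000370). Between the oncogenes 6 were higher with BCR-ABL1 and 1, again Sod2, lower (-0.87). The chemokine genes Ccl3 and Ccl5 were at -4.53 and -4.15 with BCR-ABL1 and at -4.36 and -5.39 with C-MYC. Ier3 was at -3.60 and -2.26, and Traf1 at -2.98 with each, all called. Counts of these genes in the BCR-ABL1 and C-MYC libraries were low: 10, 10, 2 and 20 for Ccl3 and 28, 33, 11 and 14 for Ccl5. Ier3 had 11, 14, 21 and 41 there, and Traf1 25, 43, 32 and 34. Other targets called lower with each oncogene had higher counts. Irf1 had 5603 and 6291 in EV cells, 1910 and 1984 in BCR-ABL1 cells and 1276 and 1396 in C-MYC cells. Bcl2l1 had 2851 and 4928, 1770 and 1481, and 652 and 611. Myeloid and T and NK cell markers were lower too, and their part in these changes was not tested. The 3 genes that rose with BCR-ABL1 were the cytokine genes Lta, Ltb and Tnf. Ltb had 850 and 871 counts in EV cells, 2288 and 2284 in BCR-ABL1 cells and 269 and 207 in C-MYC cells. Lta had 621 and 1587 counts in EV cells, 4893 and 4432 in BCR-ABL1 cells and 692 and 499 in C-MYC cells, and Tnf 319 and 482, 1051 and 985, and 206 and 173. Both BCR-ABL1 libraries exceeded all others for each of these genes, and between the oncogenes the log2 fold changes were 3.23 for Ltb (SE 0.18, adjusted p = 0.000161), 2.94 for Lta (SE 0.37, adjusted p = 0.00247) and 2.40 for Tnf (SE 0.21, adjusted p = 0.000687).

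Rel was the only member with its highest mean CPM in BCR-ABL1. It was taken here for its log2 fold change between the oncogenes, the largest of the members. That change was 0.870, close to Nfkbie (0.860) and Birc3 (0.859). The genes most like Rel across the 6 libraries, by Pearson's r of log2 CPM among genes averaging 50 counts or more, were Fbxl5 (0.997), Ranbp6 (0.995), Prkacb (0.995), Spsb1 (0.993) and Tnfrsf26 (0.993). The 6 points fall into 3 conditions, so these are descriptions and were not tested. Spsb1, an adaptor of ubiquitin ligases, had 340 and 185 counts in EV cells, 561 and 436 in BCR-ABL1 cells and 153 and 125 in C-MYC cells. Tnfrsf26, a TNF receptor family member, had 1173 and 787 in EV cells, 1499 and 1367 in BCR-ABL1 cells and 649 and 636 in C-MYC cells. As with Rel, EV replicate 1 had more counts than EV replicate 2.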

How the data were processed

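Poly(A) RNA was sequenced in 6 libraries, 2 each of EV, BCR-ABL1 and C-MYC, grouped by the sample labels. The authors aligned reads to GRCm38/mm10 with STAR 2.5.0 and UCSC known genes. The deposited table of raw counts gives an integer for each gene symbol, and the program that counted is not given in the sources used here. Deposited FPKM came from StringTie 1.3.0, run by the authors, and how transcripts were combined per symbol is not given. ChIP-seq tracks were not used here.

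Counts were tested with edgeR 4.0.16 (R 4.3.3): filterByExpr, TMM, 1 quasi-likelihood model of all 6 libraries without covariates, and Benjamini-Hochberg adjustment over 12786 genes, called below 0.05. The standard error was the log2 fold change divided by the square root of F. Markers, medians and counts of lists were computed from the same fit. Alternatives were DESeq2 1.42.0, limma 3.58.1 on log2(FPKM + 1) and log2(FPKM + 0.1) with FPKM of at least 1, other scaling, no filters, fewer libraries and a replicate block. Same-numbered libraries deviated together from their condition means (r = 0.27, 0.24 and 0.20 for the 3 pairs of conditions), a hint from the data that the numbers mark shared experiments. The scripts were tested on simulated counts. With 2 libraries per condition an exact permutation test of a single gene cannot reach 0.05, and whether replicates came from separate animals is not given, so p-values measure the spread between these libraries. Replicates differed beyond counting noise (chi-square per degree of freedom 42.9 in EV cells, 10.1 in BCR-ABL1 cells and 19.1 in C-MYC cells).

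Members, pathway lists, markers and tests were chosen with earlier results of these data known. Of each other pathway list, up to 3 called genes per comparison with the largest change were named, among those with a mean of at least 50 counts and no overlap between libraries. Traf3, Traf6, Tnip3, Il1r1, Sod2, Tab2, Tbk1 and single markers were named after their values were seen, because they fall in counts of 5 or fewer. Irf1 and Bcl2l1 were also named after their values were seen, as targets with higher counts. Coordinates are from GENCODE vM21 and promoter windows from RefSeq, both GRCm38. A B cell precursor and an erythroid marker of the lists are not reported here.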

Additional observations from a re-analysis of the deposited data

How the results depend on the processing

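Of 450 alternative values for the log2 fold changes of the members, 353 kept their direction and side of the threshold, 78 lost the call, 17 gained it and 2 changed sign. The sign changes were of values near 0: Nfkb1 with BCR-ABL1 against EV ranged from -0.108 to 0.0440 over fits that left out 1 library (highest without EV replicate 1), and Bcl3 with BCR-ABL1 against C-MYC from -0.0484 to 0.616 (lowest without BCR-ABL1 replicate 1). The cause of the lost and gained calls was not tested.

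With BCR-ABL1 against EV, 2180 genes were called, against 1307 with limma on log2(FPKM + 1), 1316 with log2(FPKM + 0.1) and 1425 without a filter on FPKM, and members called were 3, 3 and 0 in these (5 lower at an unadjusted p below 0.05 in the last). A fit of only the 4 libraries compared called 2 members, beside 1734 of all genes. Leaving out 1 library gave 665 to 2729 genes and 0 to 7 members. With C-MYC against EV, leaving out 1 library gave 3329 to 6077 genes and 5 to 10 members, against 5515 and 8. With BCR-ABL1 against C-MYC, 2991 genes were called, against 1412 with limma on log2(FPKM + 1) without a filter, which called 1 member, and 4538 with only the 4 libraries compared. Leaving out 1 library gave 618 to 4519 genes and 0 to 8 members. A library left alone in its condition was assumed to vary like the others. The replicate block called 3224, 6631 and 4278 genes and 8, 10 and 8 members in the 3 comparisons, and beside those given with Rel, Rela, Relb and Nfkb2 it changed no call of a member. With 2 libraries per condition, the 95% intervals of Rel against EV included 0 and reached 0.94 with BCR-ABL1 and -0.92 with C-MYC.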
